A study of Mus musculus with 69 samples.

Results

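The regions described here had a peak of histone H3 acetylation at lysine 27 (H3K27ac), a mark of active promoters and enhancers, in all 8 groups profiled for it. They had no peak of monomethylation at lysine 4 (H3K4me1) in any of the 10 groups profiled for that mark. Not every group was profiled for both marks. They were chosen by the deposited peaks themselves: a merged peak of the wild-type, PBS-treated haematopoietic stem cell (HSC) H3K27ac list counted if it overlapped a peak of each of the other 7 H3K27ac lists and no peak of any of the 10 H3K4me1 lists. Of 59263 merged H3K27ac regions in that list, 20807 were found in all 8 H3K27ac lists, and 2044 of those (9.82%) lacked an H3K4me1 peak. The presence of H3K27ac in 8 lists and the absence of an H3K4me1 overlap are therefore what selected these regions and are given as a description. They are set below beside the 9385 regions of all 8 H3K27ac lists with an H3K4me1 peak in 1 to 9 lists and the 9378 with one in all 10.

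The study profiled both marks by ChIPmentation, a chromatin immunoprecipitation in which the transposase Tn5 adds the sequencing adapters, in sorted mouse HSCs and haematopoietic progenitor cells (HPCs). The knockout groups were Kmt2c f/f; Vav-Cre mice, in which Cre under the Vav promoter deletes the floxed gene in blood cells, the heterozygous groups were Kmt2c f/+; Vav-Cre, and the third genotype was wild type. H3K27ac was profiled in knockout and wild-type HSCs of 16-week-old mice after 5-fluorouracil (5FU, 150 mg/kg every 3 weeks, 3 doses) or after PBS on the same schedule, with 3 libraries in each of the 4 groups. H3K27ac was also profiled in knockout and wild-type HPCs of 8- to 10-week-old mice after interleukin-1 (IL-1, 0.5 microgram per day for 3 days) or PBS, with 4 libraries in each of the 4 groups. H3K4me1 was profiled in untreated 8-week-old knockout, heterozygous and wild-type mice, in HPCs and in HSCs, with 3 libraries in each of the 6 groups. H3K4me1 was also profiled in HSCs of 16-week-old mice, with 4 libraries of 5FU-treated knockouts, 3 of PBS-treated knockouts, 6 of 5FU-treated wild types and 4 of PBS-treated wild types. Each group has 1 deposited peak list made from all its libraries, so no value below has a replicate, no test was made, and a difference has no replicate check. The lists hold no value that checks the deletion of Kmt2c, and in sorted populations a mark on fewer cells and less of it per cell cannot be told apart. Peaks lay within 1 kb of the gene start at 9 of 9 HSC markers with an annotated start in the PBS-treated knockout and wild-type HSC lists, and at 9 of 9 also in the HPC lists of the same treatment, so these markers do not separate HSCs from HPCs. HPC markers had peaks at 6 of 6 in both of those HPC lists, and in the HSC lists at 4 of 6 in knockouts and 5 of 6 in wild types. In the HSC lists peaks also lay at 2 of 2 erythroid markers in both genotypes, at 1 of 3 markers of mature lymphocytes, with Cd3e and Cd8a lacking one, and at 0 of 5 genes of liver, heart, skin and neurons.

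H3K27ac is written by the acetyltransferases CBP and p300 and marks promoters and enhancers in use. H3K4me1 is written mainly by KMT2C (also called MLL3) and its paralogue KMT2D and is the mark that characterises enhancers. At strong promoters the nucleosomes next to the gene start carry H3K4me3 in its place, written by SETD1A, SETD1B and the KMT2A and KMT2B complexes, and H3K4me1 flanks that core on either side.

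The promoters of 7 genes with such a region within 1 kb of their start are printed here to show the range of promoter sequences at these regions, from CpG-rich to CpG-poor, and were picked after the values were seen. Each line gives the 250 bases before the annotated start, from RefSeq on GRCm38.p6 (mm10), 5′ to 3′ on the gene's strand, and capitals mark every CpG dinucleotide. Hnrnpk encodes an RNA-binding protein (chr13:58402118-58402367, minus strand), Kmt2d the paralogue of Kmt2c (chr15:98871206-98871455, minus strand), H4c1 a replication-dependent histone H4 (chr13:23761250-23761499, minus strand), Taf1 the largest subunit of the general transcription factor TFIID (chrX:101532485-101532734, plus strand), Mecom a transcription factor needed by HSCs (chr3:30509760-30510009, minus strand), Rpl6 a ribosomal protein (chr5:121204251-121204500, plus strand) and Ifit3 an interferon-induced protein (chr19:34583279-34583528, plus strand).
Hnrnpk: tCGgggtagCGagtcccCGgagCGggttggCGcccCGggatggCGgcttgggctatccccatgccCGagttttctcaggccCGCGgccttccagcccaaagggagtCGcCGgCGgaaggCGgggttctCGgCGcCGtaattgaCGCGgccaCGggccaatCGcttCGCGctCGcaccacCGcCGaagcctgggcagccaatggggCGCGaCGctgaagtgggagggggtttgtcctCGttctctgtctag
Kmt2d: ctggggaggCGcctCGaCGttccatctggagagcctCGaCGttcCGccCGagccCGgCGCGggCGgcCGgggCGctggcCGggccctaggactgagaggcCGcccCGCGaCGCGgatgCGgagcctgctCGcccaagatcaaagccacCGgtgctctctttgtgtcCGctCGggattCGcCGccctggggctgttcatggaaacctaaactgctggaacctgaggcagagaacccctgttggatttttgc
H4c1: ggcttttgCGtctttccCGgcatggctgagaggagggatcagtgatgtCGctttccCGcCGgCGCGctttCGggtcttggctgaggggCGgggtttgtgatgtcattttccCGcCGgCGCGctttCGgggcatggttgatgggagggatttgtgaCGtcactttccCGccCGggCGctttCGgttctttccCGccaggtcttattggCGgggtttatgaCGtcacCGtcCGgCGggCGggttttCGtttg
Taf1: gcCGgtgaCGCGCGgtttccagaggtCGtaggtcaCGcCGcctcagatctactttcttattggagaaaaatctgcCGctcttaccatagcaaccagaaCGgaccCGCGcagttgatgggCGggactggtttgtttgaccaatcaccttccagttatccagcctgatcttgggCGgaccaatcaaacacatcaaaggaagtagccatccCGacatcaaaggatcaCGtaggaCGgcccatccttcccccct
Mecom: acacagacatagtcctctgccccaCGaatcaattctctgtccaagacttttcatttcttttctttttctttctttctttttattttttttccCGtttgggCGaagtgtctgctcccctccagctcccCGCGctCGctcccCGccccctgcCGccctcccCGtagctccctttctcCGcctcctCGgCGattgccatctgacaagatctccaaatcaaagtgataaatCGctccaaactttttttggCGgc
Rpl6: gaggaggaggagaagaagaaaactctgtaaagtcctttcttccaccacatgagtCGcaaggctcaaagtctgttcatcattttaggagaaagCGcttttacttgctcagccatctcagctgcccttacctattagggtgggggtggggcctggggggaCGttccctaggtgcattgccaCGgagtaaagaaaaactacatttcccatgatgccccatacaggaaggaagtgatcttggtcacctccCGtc
Ifit3: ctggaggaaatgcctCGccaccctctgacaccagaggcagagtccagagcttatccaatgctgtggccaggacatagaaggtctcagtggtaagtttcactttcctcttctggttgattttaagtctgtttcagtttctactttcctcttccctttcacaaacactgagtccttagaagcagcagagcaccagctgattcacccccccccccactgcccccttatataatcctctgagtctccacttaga
The 250 bases of Hnrnpk held 30 CpGs and those of H4c1 27, Kmt2d 26, Taf1 16, Mecom 14, Rpl6 5 and Ifit3 1. The CpG observed-to-expected ratio was 1.18 for H4c1 and 1.05 for Mecom, against 0.316 for Rpl6 and 0.0697 for Ifit3. The hexamer GGGCGG, read on both strands, occurred 4 times in Kmt2d, 3 times in H4c1 and 2 times each in Taf1 and Mecom, and CCAAT, the NF-Y motif, occurred 3 times in Taf1 and 2 times in Hnrnpk.

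Regions without H3K4me1 were narrow and lay at gene starts. Of the 1988 regions on chromosomes with annotated starts, 1495 (75.2%, 95% Wilson interval 73.3 to 77.0%) had a gene start within 1 kb, against 56.5% of regions with H3K4me1 in 1 to 9 lists and 25.5% of those with it in all 10. These intervals cover counting error alone. A further 331 regions had no annotated start within 1 kb but a boundary of an annotated gene, at either of its ends. Of these, 38 lay on chromosome 18, where starts were not used here. Only 17492 of 21887 protein-coding genes had an annotated start, so some of these boundaries can be gene starts. Of the other 218, 150 lay inside a gene and 68 between genes. Their median width was 599 bases (quartiles 386 and 929), against 989 bases with H3K4me1 in 1 to 9 lists and 1375 bases in all 10. Starts on both strands lay within 1 kb of 287 of the 1495 promoter regions (19.2%), a share close to the 21.0% and 18.6% of promoter regions with H3K4me1 in 1 to 9 and in all 10 lists.

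**Figure D1:**
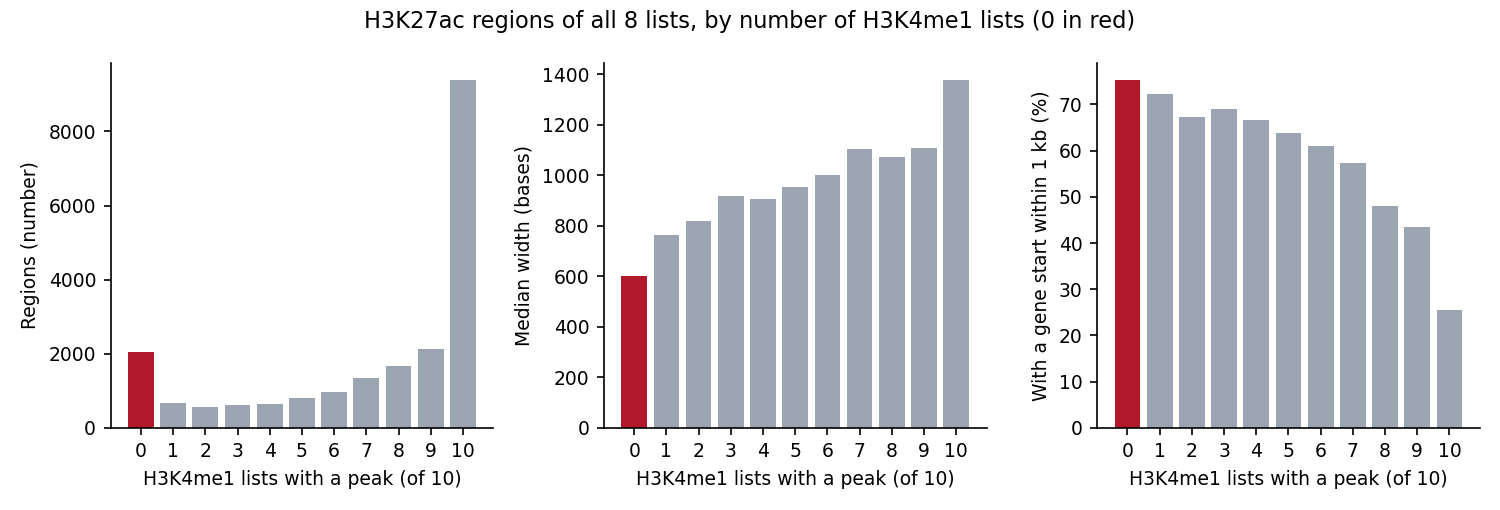
Number, median width in bases and share with a gene start within 1 kb of the H3K27ac regions of all 8 lists, by the number of H3K4me1 lists (0 to 10) with a peak on them; bars start at 0 and the 2044 regions with none are red. The share at gene starts is 75.2% with no H3K4me1 list and 25.5% with all 10, and the median width 599 and 1375 bases.

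The rule has an edge at a single overlap. The 666 regions with an H3K4me1 peak in exactly 1 list, just outside it, had a median width of 761.5 bases, and 72.2% of those on chromosomes with annotated starts had one within 1 kb. That single list was the knockout 8-week HSC list for 156 of them and the wild-type 8-week HPC list for 153. Just inside it, 451 regions had an H3K4me1 peak within 100 bases without an overlap, with a median width of 639 bases and a gene start within 1 kb in 78.0%. Position was therefore close on both sides of the edge, while the regions just outside were wider, at 761.5 against 639 bases. The 305 regions with no H3K4me1 peak within 1000 bases had a median width of 673 bases and a gene start within 1 kb in 62.8%. Of these, 43.3% were X-linked, against 1.55% of the 451 and 4.20% of the 666. The share without H3K4me1 moved with width as well as with position, and the part of width in it was not tested. On autosomes, 37.8% of the regions of 112 to 645 bases at a gene start lacked H3K4me1, against 8.43% of those of the same widths elsewhere. Among regions of 1710 bases or more, 2.09% at gene starts and 0.724% elsewhere lacked it.

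The X chromosome stood apart. A region is called X-linked here if it lies on the X chromosome of the reference genome. Of 338 X-linked regions of all 8 H3K27ac lists, 250 (74.0%, 95% Wilson interval 69.0 to 78.4%) had no H3K4me1 peak in any list, against 1794 of 20469 on autosomes (8.76%), where the share ranged from 6.36% on chromosome 16 to 11.3% on chromosome 13. Only 1 X-linked region had H3K4me1 in all 10 lists. At gene starts, 186 of 231 X-linked regions (80.5%) lacked it, against 1309 of 8745 autosomal ones (15%), and away from gene starts 64 of 107 (59.8%), against 429 of 11147 (3.85%). The X chromosome held 12.2% of the regions without H3K4me1, against 1.62% of all regions of the 8 lists. The H3K4me1 lists had few X-linked peaks of any kind, 0.0734 to 0.745% of their peaks, against 1.07 to 1.56% of the peaks of the H3K27ac lists. X-linked regions without H3K4me1 were wider, with a median of 773 bases, against 584 bases for the autosomal ones. The sex of the animals is not given in the labels, and its part in these counts was not tested. The results below include the X chromosome unless stated, and only some are also given for autosomes or the X chromosome alone.

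**Figure D2:**
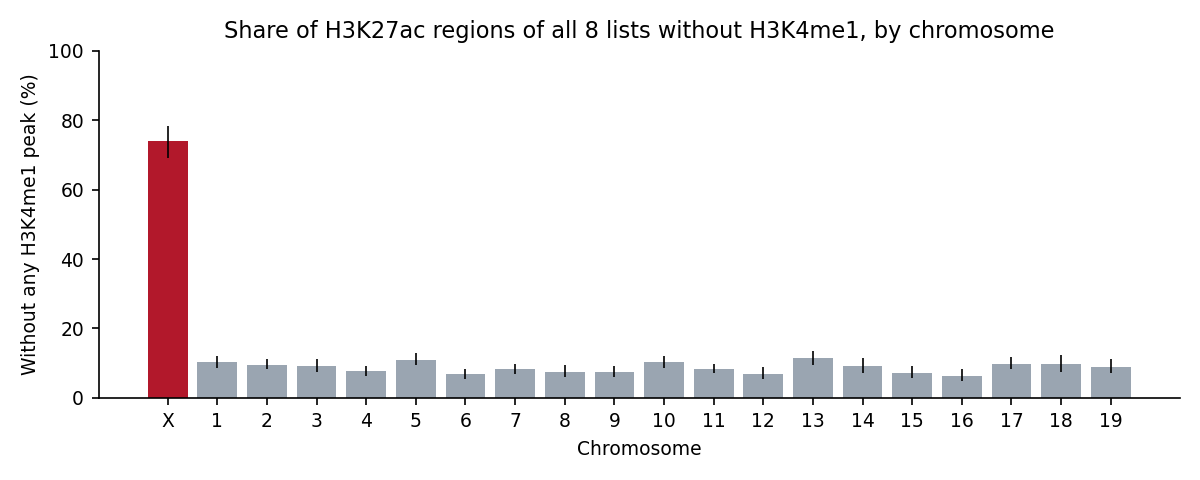
Share of the H3K27ac regions of all 8 lists that have no H3K4me1 peak in any of 10 lists, in percent, for each chromosome; error bars are 95% Wilson intervals for counting error. The X chromosome (red) is at 74.0%, and the autosomes are between 6.36 and 11.3%.

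The X-linked regions with the highest H3K27ac ranks, looked up after the values were seen, lay near Erdr1 and at Rlim, a ubiquitin ligase gene, Rbm3, Hcfc1, a transcriptional coregulator gene, and Phf8, a histone demethylase gene. Among the X-linked regions were also the promoters of Taf1, Rpl10, which encodes a ribosomal protein, Ndufb11, a subunit of respiratory complex I, and G6pdx, the X-linked glucose-6-phosphate dehydrogenase of the pentose phosphate pathway. The Taf1 region (chrX:101532232-101533769, with the start inside it) had 1641 and 1492 H3K27ac-covered bases within 1 kb in knockout HSCs after 5FU and PBS, against 1504 and 1538 in wild-type HSCs. In HPCs it had 1850 and 2085 bases in knockouts after IL-1 and PBS, against 1845 and 1964 in wild types. All 8 values lay between 1492 and 2085 bases, and the nearest H3K4me1 peaks of any list lay 88725 and 99226 bases away. The nearest H3K4me1 peak lay 1465 bases from the Rpl10 region (chrX:74269604-74271713), 109 from the Ndufb11 region and 232 from the G6pdx region, so that X-linked regions differed widely in how far H3K4me1 was.

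Most autosomal regions without H3K4me1 were not far from it. Taking the 10 lists together, 1739 of the 2044 regions (85.1%) had an H3K4me1 peak within 1 kb on at least 1 side and 921 (45.1%) on both sides. The share with one on at least 1 side was 90.4% on autosomes and 47.2% on the X chromosome, where 118 of 250 had one. The median distance to the nearest peak was 264 bases, 222 on autosomes and 1048 on the X chromosome. For 107 regions no H3K4me1 peak of any list lay within 10 kb, and 62 of these were X-linked.

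The flanking H3K4me1 lay more often on the side of the gene body. For 1208 regions with gene starts on 1 strand, an H3K4me1 peak of any list lay within 1 kb downstream of the region in 937 (77.6%) and within 1 kb upstream in 679 (56.2%). The median distance was 425.5 bases downstream and 738 bases upstream. The same order was found in each of the 10 lists. In the 8-week HSC lists a downstream peak lay within 1 kb of 65.4% of these regions in knockouts, 60.4% in heterozygotes and 54.6% in wild types, and an upstream peak of 36.3, 30.2 and 27%. In PBS-treated HSCs a downstream peak lay within 1 kb of 37.8% in knockouts and 42.2% in wild types, and an upstream peak of 14.4% in knockouts and 15.1% in wild types. The regions themselves were placed unevenly: 394 of the 1208 lay wholly downstream of the nearest start, 566 spanned it and 248 lay wholly upstream. The share spanning the start was 46.9%, against 65.2% of such regions with H3K4me1 in 1 to 9 lists and 71.1% in all 10. Of the 642 beside the start, 435 (67.8%) faced another H3K27ac region of the wild-type PBS HSC list within 1 kb across the start. That share was 74.2% for regions with H3K4me1 in 1 to 9 lists and 79.6% in all 10.

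**Figure D3:**
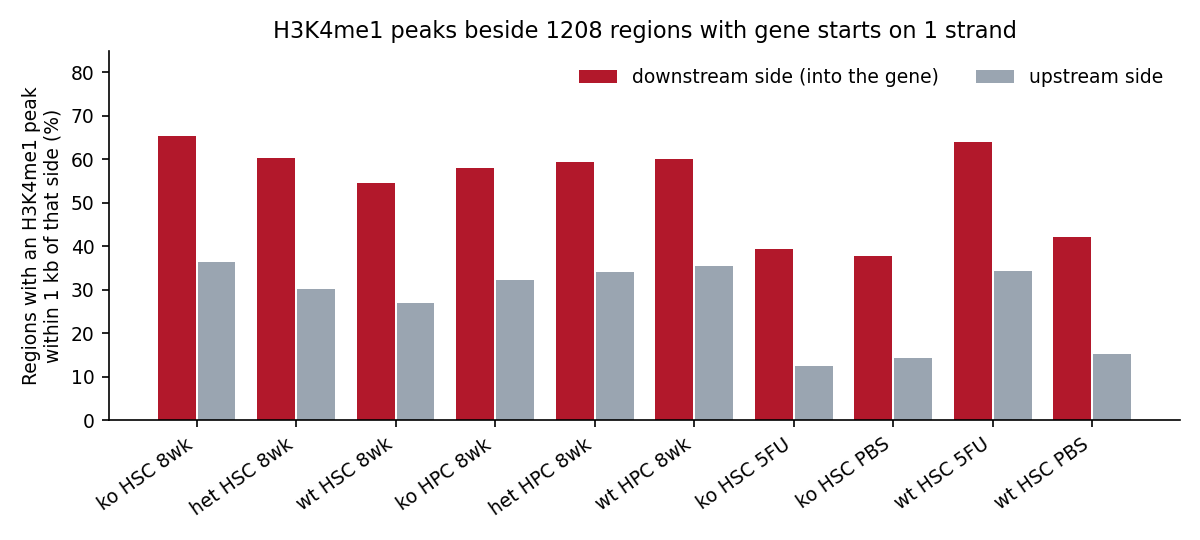
Share of the 1208 regions without H3K4me1 and with gene starts on 1 strand that have an H3K4me1 peak within 1 kb of their downstream (red) or upstream (grey) side, in percent, for each of the 10 H3K4me1 lists. The downstream bar is the taller one in all 10, from 37.8 to 65.4%, with the upstream bars at 12.6 to 36.3%.

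The share of regions with H3K4me1 nearby is given here beside the length each list covered; the order of the shares did not follow that length in every case. In 8-week HSCs an H3K4me1 peak lay within 1 kb of 72.8% of the 2044 regions in knockouts, 68.2% in heterozygotes and 62.7% in wild types, whose lists covered 113, 103 and 86.1 Mb. In 8-week HPCs the shares were 66.8% in knockouts, 68.2% in heterozygotes and 69.3% in wild types, and the covered lengths 103, 102 and 103 Mb. In HSCs after 5FU the shares were 45.0% in knockouts and 70.7% in wild types, with 44.2 and 116 Mb covered. The wild-type 5FU list joins 3 libraries titled with the prefix s5060 and 3 with s4902, while the 4 libraries of the knockout 5FU list all have s5060, and the part of this in the difference was not tested. Without the wild-type 5FU list 2137 regions would have no H3K4me1 peak, against 2044 with it. After PBS the shares were 44.3% in knockouts and 47.3% in wild types, with 44.2 and 54.0 Mb. The part of list length in these differences was not tested, and an absent peak in a list is not a measured absence of the mark.

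The promoters at these regions were mostly CpG islands. The nearest promoters numbered 1384, and 77.1% (95% Wilson interval 74.8 to 79.2%) met the criteria of at least 50% G and C and a CpG observed-to-expected ratio of at least 0.6 over 300 bases, against 75.9% (74.6 to 77.1%) at regions with H3K4me1 in 1 to 9 lists, 59.0% (56.9 to 61.0%) at regions with it in all 10 and 33.5% of all 32851 promoters in the table. The X-linked promoters reached 60.5% (52.7 to 67.8%). GGGCGG, bound by Sp and KLF factors, occurred in 71.5% of promoters at regions without H3K4me1, in 67.9% and 56.2% at regions with it in 1 to 9 and in all 10 lists, and in 35.7% of all promoters of the table. CCGGAAG, the core of ETS-factor sites, occurred in 16.8% of promoters at regions without H3K4me1, against 20.2% and 20.5% at regions with it in 1 to 9 and in all 10 lists and 8.86% in the table. The AP-1 motif TGANTCA occurred in 3.76%, against 3.77, 7.14 and 7.81% in the same groups. All motifs were read on both strands of the same 300 bases, a match is a description of letters and not a bound site, and CpG-rich sequence and GGGCGG matches overlap. CCAAT occurred in 39.7% of promoters at regions without H3K4me1 and in 37.4% of the table, and TATAAA 40 to 15 bases before the start in 1.16%, against 1.99% of the table.

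Genes of basic cell functions held many of these regions, in about the proportion of other active genes. Over all protein-coding genes with an annotated start, 7346 had a region of all 8 H3K27ac lists within 1 kb of a start, and 1408 of these (19.2%) had one without H3K4me1, 575 of them beside another region that did have H3K4me1. On autosomes alone it was 1254 of 7161 (17.5%). Of cytosolic ribosomal protein genes 13 of 57 had one (22.8%), among them Rpl6, Rpl10 and Rpl38, and of mitochondrial ribosomal protein genes 12 of 61 (19.7%), among them Mrpl41 and Mrpl11. For genes of the respiratory chain and ATP synthase the count was 7 of 61 (11.5%), with Cox7c and Ndufb11, and for proteasome subunits 4 of 30, with Psmd11. Splicing factors and hnRNPs had 14 of 54 (25.9%), with Hnrnpk and Hnrnpa2b1, which bind nascent RNA. RNA polymerase subunits and general factors had 11 of 49 (22.4%), with Taf1, Gtf2a1, a subunit of TFIIA, and Gtf2i, and Mediator subunits 4 of 22, with Med13, part of the kinase module, and Med14. Zinc finger genes of the Zfp, Zkscan and Zscan series had 29 of 209 (13.9%), with Zfp384 and Zfp622. Aminoacyl-tRNA synthetases had 5 of 24 and genes of the cell cycle and replication 5 of 20, with Cdk6, a kinase that drives entry into the cycle, and Mcm5, a subunit of the replicative helicase.

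The replication-dependent histone genes had the highest share of the 23 lists. Such a region lay within 1 kb of the start of 19 of 39 histone genes (48.7%), and all 19 also had a region with H3K4me1 within 1 kb. Genes were counted, so a region near the starts of several clustered genes counts for each, and separate regions were not counted. The H2bc9 region (chr13:23543178-23544640) had a mean percentile of 98.3 by H3K27ac −log10 p, and those at H4c1 (chr13:23761027-23762120) and H1f2 97.0 and 95.9. The percentile is the rank of a region's strongest peak among the same 20807 regions, taken within each list, and its mean is over the 8 H3K27ac lists. H4c1 had 2327 and 2290 H3K27ac-covered bases within 1 kb in knockout HSCs after 5FU and PBS, against 2457 and 2469 in wild-type HSCs. In HPCs it had 2772 and 2810 bases in knockouts after IL-1 and PBS, against 2709 and 2805 in wild types. All 8 values lay between 2290 and 2810 bases.

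Among genes of signal responses and lineages the shares ran from 0 to 37.5%, beside the 19.2% over all protein-coding genes. Immediate early and stress genes had 6 of 20 (30%), among them Arrdc3, an arrestin-domain gene, Jun, the AP-1 subunit, and Klf6, and genes of the NF-kB and IL-1 response 6 of 16 (37.5%), among them Nfkb2, which encodes the p100 precursor. Another of the 6 is X-linked Ikbkg, the regulatory subunit of the IKK complex, whose regions lie at the starts of its neighbours G6pdx and Fam3a. HSC identity genes had 3 of 13 (23.1%): Mecom (chr3:30509220-30509814), Hlf (chr11:90389927-90390812), which encodes a bZIP factor of HSCs, and Kit (chr5:75575028-75576203), the receptor of stem cell factor. Their mean percentiles were 65.8, 59.6 and 54.2. None of the 4 granulocyte and monocyte genes and none of the 5 lymphoid genes with a region of all 8 lists had one, nor the 2 such markers of mature lymphocytes. Interferon response genes had 1 of 22 (4.55%, Ifit3), MHC and antigen presentation genes 2 of 12, p53 response genes 2 of 8, DNA repair genes 1 of 14, and H3K4 methylation and enhancer complexes 4 of 14: Kmt2d, Kmt2a, Setd1a and Dpy30, a shared subunit of the H3K4 methyltransferase complexes. None of the 13 silent tissue genes with an annotated start had a region of all 8 lists.

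Among these, Kmt2d (chr15:98870782-98872438) had 1587 and 1912 H3K27ac-covered bases within 1 kb in knockout HSCs after 5FU and PBS, against 1888 and 2034 in wild-type HSCs. In HPCs it had 2181 and 2406 in knockouts after IL-1 and PBS, against 2151 and 2164 in wild types. No value differed by 1.5-fold from that of the same treatment in the other genotype. Kit had 1822 and 2171 bases in knockout HSCs after 5FU and PBS, against 1931 and 1932 in wild-type HSCs. In HPCs Kit had 2389 and 2379 in knockouts after IL-1 and PBS, against 2310 and 2376 in wild types. The 8 values of Kit ranged less than those of Kmt2d.

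By strength of H3K27ac the regions spanned the whole range. The 12 highest at protein-coding genes had mean percentiles of 97.4 to 99.4 and lay at Arrdc3, Nr1h2, which encodes the oxysterol receptor LXR beta, Sfpq, a splicing factor, Rap2a, a small GTPase, Nsd3, a histone H3 lysine 36 methyltransferase, H2bc9, Crlf2, a subunit of the TSLP receptor, Usp34, a deubiquitinase, Fiz1, Fem1a, Jun and Cep95. At all of these but Crlf2 the nearest H3K4me1 peak of any list lay between 35 bases, at Arrdc3 (chr13:80883197-80886734), and 324 bases, at Fem1a, from the region, while at Crlf2 (chr5:109556221-109559094) it lay 6014 bases away. Among those nearest the median of 48.2 were regions at Cux1, Igf1r and Clasp1. Among the lowest were regions at Rtl8a, D830031N03Rik, Foxo4, Obi1 and Naaa, with mean percentiles of 6.20 to 9.32. Rtl8a (chrX:53643729-53644298) had 122 and 399 H3K27ac-covered bases in knockout HSCs after 5FU and PBS, against 488 and 570 in wild-type HSCs, and 199 and 270 in knockout HPCs after IL-1 and PBS, against 384 and 227 in wild-type HPCs. Sfpq (chr4:127020944-127022947) had 1978 and 2128 in knockout HSCs after 5FU and PBS, against 2119 and 2004 in wild-type HSCs, and 2360 and 3144 in knockout HPCs after IL-1 and PBS, against 2414 and 2707 in wild-type HPCs. The covered length thus varied by severalfold between lists at the weak region and by less than that at the strong one.

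The regions ranked higher in HPCs than in HSCs. Their median percentile lay between 55.6 and 59.4 in the 4 HPC lists and between 40.4 and 44.5 in the 4 HSC lists. Averaged over the lists of a cell type, the median was 57.3 in HPCs and 41.5 in HSCs, and 1392 of 2044 (68.1%) were higher in HPCs. On autosomes the medians were 58.2 in HPCs and 40.3 in HSCs, and on the X chromosome 49.7 and 47.7. For regions with H3K4me1 in 1 to 9 lists they were 53.5 in HPCs and 51.8 in HSCs, and with it in all 10 lists 42.6 and 45.9. At autosomal gene starts the HPC medians were 58.7 without H3K4me1, 65.3 with it in 1 to 9 lists and 71.2 in all 10. The HSC medians there were 40.2, 61.3 and 69.8, so these regions ranked below promoter regions with H3K4me1. Among those of 112 to 645 bases the order turned, with 50.7, 45.7 and 45.2 in HPCs and 27.1, 26.2 and 23.0 in HSCs. The regions were drawn from an HSC list, and width moved with the difference. Among autosomal promoter regions of 112 to 645 bases, the median difference, HPC minus HSC, was 18.6 percentile points without H3K4me1, 16.1 with it in 1 to 9 lists and 17.5 in all 10. Among those of 646 to 1082 bases it was 7.25, 2.54 and 6.21, and among those of 1083 to 1709 bases 4.67, −2.89 and −0.80. Narrow regions with H3K4me1 thus had nearly the same difference. The HPC lists held 37002 to 41314 peaks with median widths of 587 to 784 bases. The HSC lists held 51112 to 67143 peaks with median widths of 294 to 430 bases, and the part of this was not tested. HPC and HSC lists also differ in age, treatment, number of libraries and the prefix of the library titles, which cannot be told apart from cell type.

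**Figure D4:**
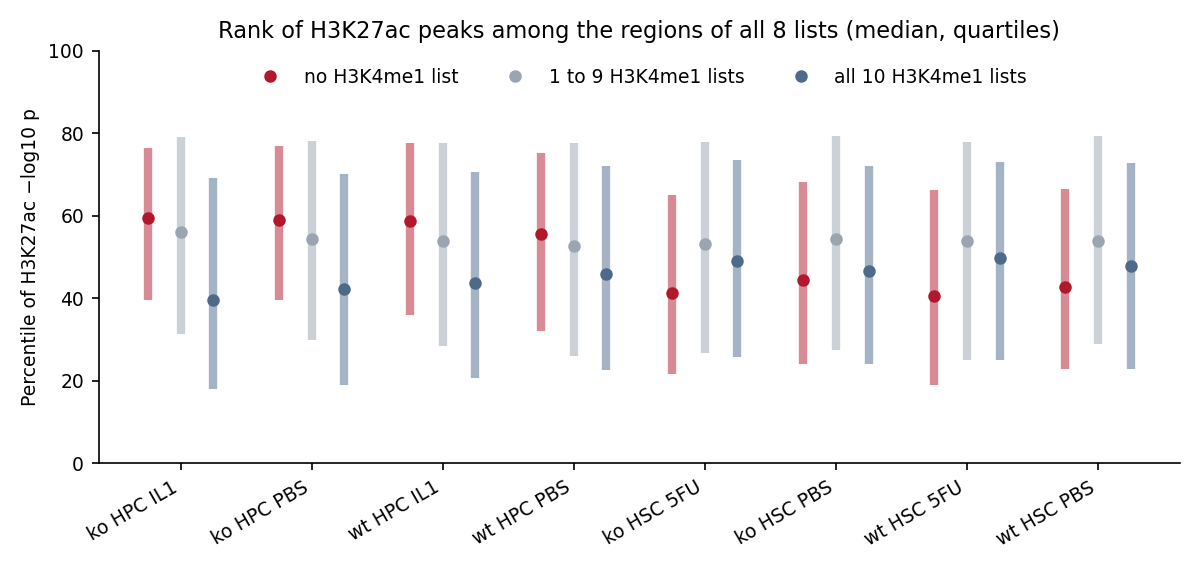
Percentile of H3K27ac −log10 p among the 20807 regions of all 8 lists, within each H3K27ac list; points are medians and bars the quartiles, for regions with no H3K4me1 list (red), 1 to 9 (grey) and all 10 (blue). The red medians are 55.6 to 59.4 in the HPC lists and 40.4 to 44.5 in the HSC lists.

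In HPCs, fewer of these regions than of all regions had a shorter H3K27ac-covered length in knockouts. For each region the bases covered by H3K27ac peaks within 1 kb were compared after adding 200 bases to both, and the log2 ratio was taken relative to the median over all 20807 regions, which in knockouts over wild types was −0.12 in HSCs after PBS, −0.12 after 5FU, 0.01 in HPCs after PBS and −0.09 after IL-1. In PBS-treated HPCs of knockouts against wild types, 4 of the 2044 regions were at least 1.5-fold lower (0.196%), against a background of 5.08% of all regions, and 105 at least 1.5-fold higher (5.14%), against 2.54%. In IL-1-treated HPCs 22 were lower (1.08%), against 8.23%, and 31 higher (1.52%), against 1.5%. In PBS-treated HSCs 99 were lower (4.84%), against 9.44%, and 106 higher (5.19%), against 2.3%. In 5FU-treated HSCs 151 were lower (7.39%), against 8.53%, and 55 higher (2.69%), against 2.13%. Regions at gene starts that do have H3K4me1, 7481 in number, were lower in 1.51% in PBS-treated HPCs, 2.09% in IL-1-treated HPCs, 4.37% in PBS-treated HSCs and 4.57% in 5FU-treated HSCs. The share of lower regions was thus below the background at gene starts with H3K4me1 too, and in HSCs it was no smaller without H3K4me1. With lists of equal covered bases, 298 regions were higher in PBS-treated HSCs (14.6%, against 10.3% of all regions) and 62 lower (3.03%, against 6.98%). In 5FU-treated HSCs 238 were higher (11.6%, against 10.7%) and 154 lower (7.53%, against 8.56%). There the balance turned, as it did over all regions. In IL-1-treated HPCs 156 were higher (7.63%, against 11.5%) and 26 lower (1.27%, against 6.61%). The counts also moved by over 1.5-fold with the window or added bases, while in HPCs and in PBS-treated HSCs the share of lower regions stayed below that of all regions in each of the settings run. The share of higher regions in PBS-treated HPCs did not stay above that of all regions. It was 0.734% against 1.35% without flanks and 0.440% against 0.442% with 1000 added bases. With equal covered bases it was 10.9% against 8.04%, and with equal numbers of peaks 5.28% against 3.15%.

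In HPCs the shares of these regions that differed by treatment were below the background in both directions, and in HSCs they lay on either side of it. In HSCs of knockouts, 5FU against PBS, 83 were higher (4.06%), against a background of 5.99%, and 135 lower (6.60%), against 4.4%. In wild-type HSCs, 5FU against PBS, 104 were higher (5.09%), against 3.26%, and 46 lower (2.25%), against 2.52%. In knockout HPCs, IL-1 against PBS, 7 were higher (0.342%), against 1.67%, and 63 lower (3.08%), against 6.69%. In wild-type HPCs, IL-1 against PBS, 37 were higher (1.81%), against 2.16%, and 25 lower (1.22%), against 3.52%. With lists of equal covered bases, 69 were higher in knockout HPCs (3.38%, against 10.9% of all regions) and 76 lower (3.72%, against 5.95%). In wild-type HSCs 219 were then higher (10.7%, against 8.03%) and 187 lower (9.15%, against 9.07%). With equal numbers of peaks, 166 were higher in wild-type HSCs (8.12%, against 6.32%) and 124 lower (6.07%, against 6.29%). The medians over the 2044 regions lay between −0.04 and 0.08 log2 in all 8 comparisons. Comparisons that share a list are not independent: the PBS list of a genotype is set against its treated list and is itself compared between genotypes.

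**Figure D5:**
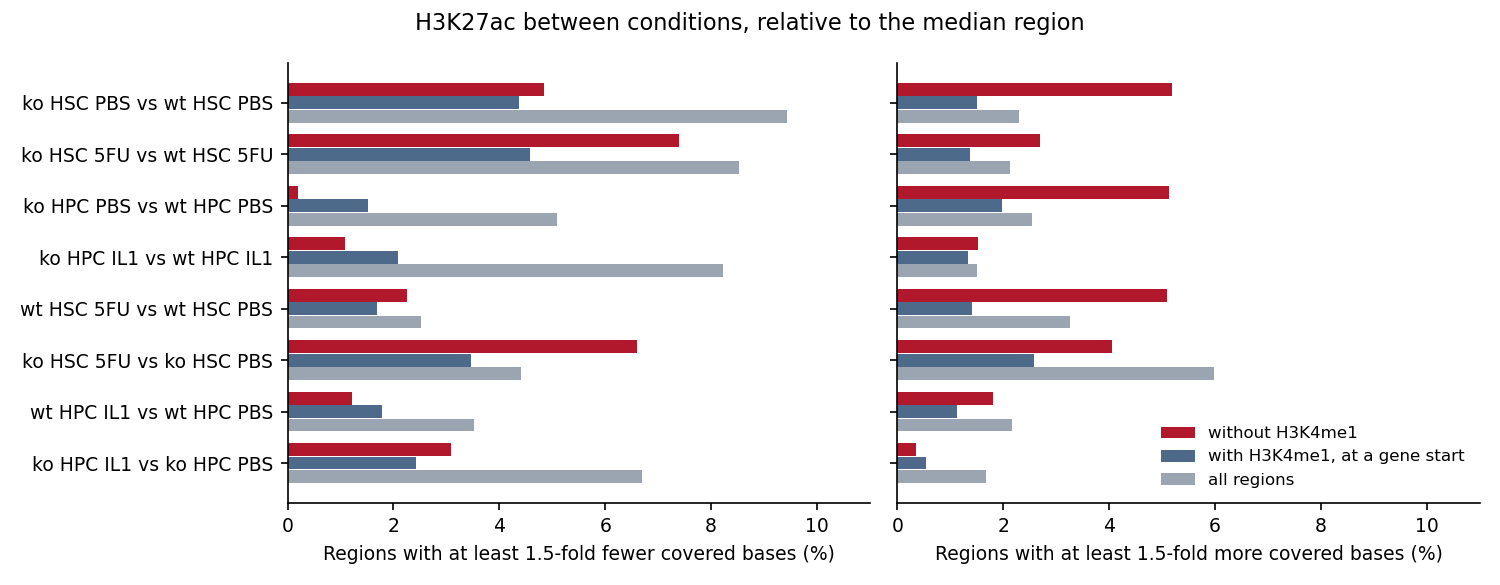
Share of regions, in percent, with at least 1.5-fold fewer (left) or more (right) H3K27ac-covered bases within 1 kb in each of 8 comparisons, relative to the median region; the 2044 regions without H3K4me1 are red, the 7481 at gene starts with H3K4me1 blue and all 20807 grey. In PBS-treated knockout against wild-type HPCs the red bar for fewer bases is 0.196% and the grey one 5.08%.

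The largest difference between genotypes was at Cpne5, a gene of the copine family of calcium-dependent membrane-binding proteins (chr17:29159832-29160415, inside the gene). Knockout HPCs had 852 and 249 covered bases after IL-1 and PBS, against 1837 and 2478 in wild-type HPCs. Knockout HSCs had 560 and 647 after 5FU and PBS, against 2190 and 1951 in wild-type HSCs. Each of the 4 knockout values was below each wild-type value. The relative log2 ratio was −2.59 in PBS-treated HPCs, −0.87 in IL-1-treated HPCs, −1.22 in PBS-treated HSCs and −1.53 in 5FU-treated HSCs. It was thus past 1.5-fold lower in all 4 comparisons between genotypes.

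At Pim1, which encodes a serine/threonine kinase (chr17:29491429-29492437), 5FU-treated knockout HSCs had 253 covered bases, against 1807 in 5FU-treated wild-type HSCs (−2.02), and PBS-treated knockout HSCs had 869, against 1308 in PBS-treated wild-type HSCs (−0.38). In HPCs Pim1 had 2647 and 2724 in knockouts after IL-1 and PBS, against 3009 and 2668 in wild types (−0.09 and 0.02). At Actg1, the gene of cytoplasmic gamma-actin (chr11:120347848-120349152), 5FU-treated knockout HSCs had 457 bases, against 2190 in wild types (−1.74), and in HPCs the ratios were −0.09 after IL-1 and −0.01 after PBS. The low values of both genes were those of the 5FU-treated knockout HSC list.

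In PBS-treated HSCs the lowest ratios were at Tpm4, a tropomyosin gene, with 163 bases in knockouts against 1110 in wild types (−1.73), and Acvr2b, an activin receptor gene, with 215 against 1193 (−1.63). Both were also lower in 5FU-treated knockout than wild-type HSCs (−1.32 and −1.44). In PBS-treated HPCs Tpm4 had 2057 bases in knockouts and 2036 in wild types, and Acvr2b 1209 and 975. The highest were at Syne1, which encodes a nuclear envelope protein, with 937 bases in knockouts against 112 in wild types (1.99), and Zfp53, with 771 against 134 (1.66). At both the wild-type PBS list, from which the regions were drawn, held a single narrow peak of 112 and 134 bases, and Syne1 had 984 bases in 5FU-treated wild-type HSCs.

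Among treatments, 5FU against PBS in knockout HSCs gave the lowest ratios at Gatad2a, a subunit gene of the NuRD complex (134 bases after 5FU, 951 after PBS, −1.83), and Hes6, a gene of the HES family (183 and 870, −1.53), and the highest at Fbxl19 (789 and 167, 1.38) and Lta4h, which encodes leukotriene A4 hydrolase (1428 and 440, 1.3). In wild-type HSCs the lowest were at Numbl (312 after 5FU and 1177 after PBS, −1.48) and Nfic (360 and 1112, −1.28). IL-1 against PBS gave the lowest ratios in knockout HPCs at Mllt3 (155 after IL-1 and 962 after PBS, −1.58) and in wild-type HPCs at Car12, a carbonic anhydrase gene (191 and 835, −1.39). It gave higher values at Rps6ka3, an X-linked kinase gene, in both genotypes, with 1642 bases after IL-1 and 967 after PBS in knockouts (0.79), and 1798 and 691 in wild types (1.18).

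The other extremes named between genotypes had 166 to 539 covered bases in the list with the lower value. In 5FU-treated HSCs the highest ratios were at Elp2, an Elongator subunit gene, with 1795 bases in knockouts against 267 in wild types (2.22), and Tesk2, a kinase gene, with 644 against 188 (1.25). In PBS-treated HPCs they were at Ttll8, with 907 bases in knockouts against 166 in wild types (1.58), and Tmx2, with 1505 against 440 (1.4). In IL-1-treated HPCs Slc23a2, a vitamin C transporter gene, had 1113 bases in knockouts against 424 in wild types (1.16), and the X-linked Ap1s2, an adaptor complex subunit gene, 539 against 1464 (−1.08).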

How the data were processed

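The data are 18 peak lists, 8 of H3K27ac and 10 of H3K4me1, 1 for each group of the 63 grouped libraries; 6 input libraries were not used. Reads were aligned with Novoalign and peaks were called with MACS2 on mm10, per the submitters' processing notes; their versions and thresholds were not given in the sources used here. For each peak the deposited lists give a fold enrichment (a ratio), the −log10 of its p and q, and a summit, as the authors' values per peak; library depths are not in these lists, so counting precision of a peak is unknown and longer lists can hold weaker peaks. Overlaps of at least 1 base, distances and covered bases were computed with Python 3.11.15, numpy 2.4.6 and pandas 2.3.3, and checked on simulated intervals. Gene starts and promoter sequences are from RefSeq, GRCm38.p6. The members and gene lists were chosen with earlier results of these data known.

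Named regions were the 12 highest, 4 nearest the median and 6 lowest by mean percentile at protein-coding genes, up to 3 highest of each gene list, the 2 largest differences each way in each comparison, and the 4 farthest from a gene. Some regions that this rule names are not reported here. Other H3K27ac regions, gene list members and the highest-ranked X-linked regions named in the text were looked up after their values were seen. Whether the libraries of a group come from separate animals is not stated in the labels. The alternatives tried were overlap, peak thresholds, joining, distances, list length, added bases and the X chromosome.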

Additional observations from a re-analysis of the deposited data

How the results depend on the processing

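The lists are pooled per group, so leaving out a replicate was not run and no interval between replicates can be given. No paired analysis was possible because each group has 1 pooled list. Requiring no H3K4me1 within 500 bases left 614 regions, with 67.7% at gene starts and a median percentile of 49.4, and joining H3K27ac peaks within 500 bases left 918. A 50% overlap gave a median width of 623 bases, and a −log10 q of at least 2 gave 732 bases and a median percentile of 46.4. The share at gene starts was 70.6% within 500 bases, 78.0% within 2000 and 71.7% for protein-coding genes. With either boundary of a gene counted it was 82.4%, an alternative chosen after seeing the data. The median H3K4me1 distance was 429.5 bases to the 3 wild-type HSC lists and 222 without the X chromosome, also chosen after seeing the data. A CpG ratio of 0.75 gave 57.2% CpG islands. The counts of regions at least 1.5-fold different moved most. In knockouts over wild types, for HSCs after PBS, HSCs after 5FU, HPCs after PBS and HPCs after IL-1, they were 205, 206, 109 and 53, with 1000 added bases 25, 34, 10 and 2, with equal covered bases 360, 392, 243 and 182, without flanks 93, 144, 17 and 23, and with equal numbers of peaks 319, 406, 112 and 54. For treated over PBS, in wild-type HSCs, knockout HSCs, wild-type HPCs and knockout HPCs, they were 150, 218, 62 and 70, with 1000 added bases 12, 19, 6 and 11, with equal covered bases 406, 277, 199 and 145, without flanks 47, 136, 26 and 32, and with equal numbers of peaks 290, 389, 68 and 75. The shares over all regions moved as well. In knockout over wild-type HSCs after PBS, 4.84% of these regions and 9.44% of all regions were lower, with 1000 added bases 0.832% and 2.93%. The shares higher were 5.19% and 2.30%, and with equal covered bases 14.6% and 10.3%. Adding more bases to both lengths brings their ratio nearer to equality by construction. The cause of the other movements was not tested. Without flanks no region can be higher than in the PBS-treated wild-type HSC list it was drawn from. The balance of higher and lower regions turned in some settings. In knockout over wild-type HSCs after 5FU it was 55 higher and 151 lower, and 238 and 154 with equal covered bases. Over all regions the shares there were 2.13% higher and 8.53% lower, and 10.7% and 8.56%. Without flanks 8 were higher (0.391%, against 0.928% of all regions) and 15 lower (0.734%, against 6.69%) in knockout over wild-type HPCs after IL-1. Also without flanks, for IL-1 over PBS in wild-type HPCs, 10 were higher (0.489%, against 1.22%) and 16 lower (0.783%, against 2.59%). With 1000 added bases, 8 were higher (0.391%, against 0.298%) and 17 lower (0.832%, against 2.93%) in knockout over wild-type HSCs after PBS. Medians near 0 changed sign, to −0.01 with equal covered bases for IL-1 over PBS in knockout HPCs (0.03 as reported) and to −0.000488 with equal numbers of peaks for knockout over wild-type HSCs after 5FU (0.01 as reported). Read depth is not given, so an absent peak cannot be told apart from a shallow library.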

Other observations

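A few regions overlapped small RNA genes. A tRNA gene lay in 12 of the 2044 regions (0.587%, 95% Wilson interval 0.336 to 1.02%), against 27 of 9385 with H3K4me1 in 1 to 9 lists (0.288%) and 4 of 9378 with it in all 10 (0.0427%). A snoRNA gene lay in 11 regions (0.538%), against 29 (0.309%) and 5 (0.0533%), and a miRNA gene in 9 (0.440%), against 46 (0.490%) and 24 (0.256%). One such region, at the tRNA gene n-TMcat6 in the histone cluster of chromosome 13, had 298 covered bases after IL-1 and 1240 after PBS in knockout HPCs (−1.40), and 269 and 896 in wild-type HPCs (−1.21).

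The regions farthest from an annotated gene lay 147178 bases from Gm18969, 130893 from Gm34187 and 97116 from Gm26314, the last 2 on the X chromosome, and 78036 from Rps18-ps1. Those near Gm18969 and Rps18-ps1 ranked higher in HSCs, with mean percentiles of 49.7 in HPCs and 81.4 in HSCs, and of 52.6 and 81.7. The X-linked pair ranked higher in HPCs, with 42.6 in HPCs and 23.7 in HSCs, and with 49.5 and 15.1.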
